A study of Danio rerio with 3 samples.

Results

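Homeobox genes of brain regional identity were followed in droplet libraries of the zebrafish (Danio rerio) brain. Members were taken by symbol: every gene whose symbol has the prefix dlx-, lhx-, otx-, emx-, barhl-, irx-, meis-, pbx-, zfhx-, en-, pax-, six- or pou- before a digit, or hox- before a letter from a to d and a digit. The rule found 148 genes among 32057, and the rule itself uses no measured value. Of the 148, 107 had at least 1 molecule in the 3 libraries together and 41 had none. The name regional identity describes the families rather than every gene, since the rule also takes in pou2f1b, a broadly used factor, and hox genes of the trunk.

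These genes encode transcription factors, most with a homeodomain, a helical fold that binds DNA. In the embryo they divide the neural tube into forebrain, midbrain and hindbrain territories, and many stay on in mature neurons, where combinations of them mark a neuron's place of origin and its transmitter. The pbx and meis proteins belong to the TALE class and pair with hox proteins on DNA. The dlx, six3 and emx genes act in the forebrain, otx genes in forebrain and midbrain, pax2 and engrailed (en) genes at the boundary of midbrain and hindbrain, and hox genes from the hindbrain backwards.

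The study asked how zinc acts on the brain. The 3 libraries are a control named Ctrl and zinc treatments named Zn10 and Zn15, with 1 library each, made by the 10x Genomics droplet method from cells of dissociated brain. The sources used here do not state what unit the 10 and 15 are in, how or how long the animals were exposed, or their age, strain and number. Each droplet has a barcode and each captured molecule a unique molecular identifier (UMI); levels are UMIs of a gene per 1000000 UMIs of the library or class (CPM). The libraries held 1698707 UMIs in 5679 barcodes (Ctrl), 974866 in 2850 (Zn10) and 1634806 in 5154 (Zn15), so that a gene with no UMI may still have been at up to 1.77, 3.08 or 1.84 CPM, the level of 3 counts. Pairs of libraries shared 4 to 8 barcode sequences. Intervals below are exact, at 95%, and cover counting error only.

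The genes together took 5407 CPM in Ctrl, 5921 CPM in Zn10 and 5274 CPM in Zn15. A few families held most of these molecules. The 6 pbx genes held 37.4% of the 23579 UMIs and the pair of zfhx genes 22.2%; the 16 pou genes followed with 11.5%, the 15 pax genes with 8.44%, the 10 lhx genes with 5.33% and the 4 engrailed genes with 4.35%. The irx-, barhl-, meis-, otx-, dlx-, six- and emx- families held between 0.619% and 2.49% each. The 48 hox genes held 186 UMIs in all, 0.789%, and 25 of them had none. The hox genes with most UMIs were hoxb3a with 35 and hoxc6b with 27, and few hox-expressing cells and little hox RNA per cell cannot be told apart in such sums.

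Single genes spanned a wide range, with 32 at 100 UMIs or more, 24 at 20 to 99 and 51 at 1 to 19. A Pbx gene stood at the top. pbx4, a TALE cofactor, had 1250.4 CPM in Ctrl, 1349 CPM in Zn10 and 1327 CPM in Zn15 and was seen in 28.8% of all barcodes. zfhx3, a large factor that joins zinc fingers to homeodomains, had 699, 729 and 598 CPM in Ctrl, Zn10 and Zn15, and its relative zfhx4 had 581, 665 and 445 CPM. pbx3b stood at 394, 385 and 373 CPM and pbx1a at 330, 325 and 322 CPM in the same order, with little difference between libraries. Next came pax2a (792 UMIs), lhx1a (749), pax6b (539), pax6a (518) and en2a (457). CPM values count molecules and were not divided by gene length, so the order of genes also carries how well each was captured.

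Barcodes were sorted into classes by marker genes, none of which is among the 148. Barcodes with 100 genes or more were kept if mitochondrial UMIs made up no more than 30%. A kept barcode entered a class with at least 2 UMIs of its markers, at least 2-fold over their mean, and the class of highest fold was taken. Barcodes left over with at least 4 UMIs of general neuron markers form the class other neuron. This gave 11 classes with at least 30 barcodes in each library, which between them hold 557 GABAergic, 330 glutamatergic, 1575 other neuron, 202 habenula, 568 granule, 426 newborn neuron, 361 dividing, 555 radial glia, 393 oligodendrocyte precursor, 988 oligodendrocyte and 784 microglia barcodes. The marker check left limits. The oligodendrocyte precursor class also carried oligodendrocyte markers. The granule class rests on zic genes, neurod1, fat2 and oprd1b, while gabra6a, gabra6b and cbln12, which define mature cerebellar granule cells, were almost absent. The glutamatergic class is in practice a class of slc17a6b, a vesicular glutamate transporter.

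Summed over the 148 genes, levels were lowest in microglia in every library. In Ctrl they were highest in newborn neurons, other neurons and the habenula class. In Ctrl, Zn10 and Zn15 they were 8217, 8576 and 9107 CPM in other neurons, 9186, 7722 and 8386 CPM in newborn neurons and 7722, 10480.0 and 8176 CPM in the habenula class. The GABAergic class had 5592.5, 8016 and 8510.4 CPM, above newborn neurons in Zn10 and above newborn neurons and the habenula class in Zn15. The glutamatergic class had 5906, 6634 and 6463 CPM and the granule class 5776, 6787 and 6303 CPM. Dividing barcodes lay among these neuronal sums in Ctrl, at 6173 CPM. In Zn10 and Zn15 they lay below every neuronal sum of the same library, at 6629 and 5498 CPM. Radial glia had 3426, 2600 and 2983 CPM, and oligodendrocytes 2509, 1915 and 2270 CPM. Microglia, which do not descend from the neural tube, had 807, 1195 and 841 CPM, and serve here as a low comparison, since free RNA was not removed. General neuron markers summed to 745.6 CPM in microglia.

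**Figure D1:**
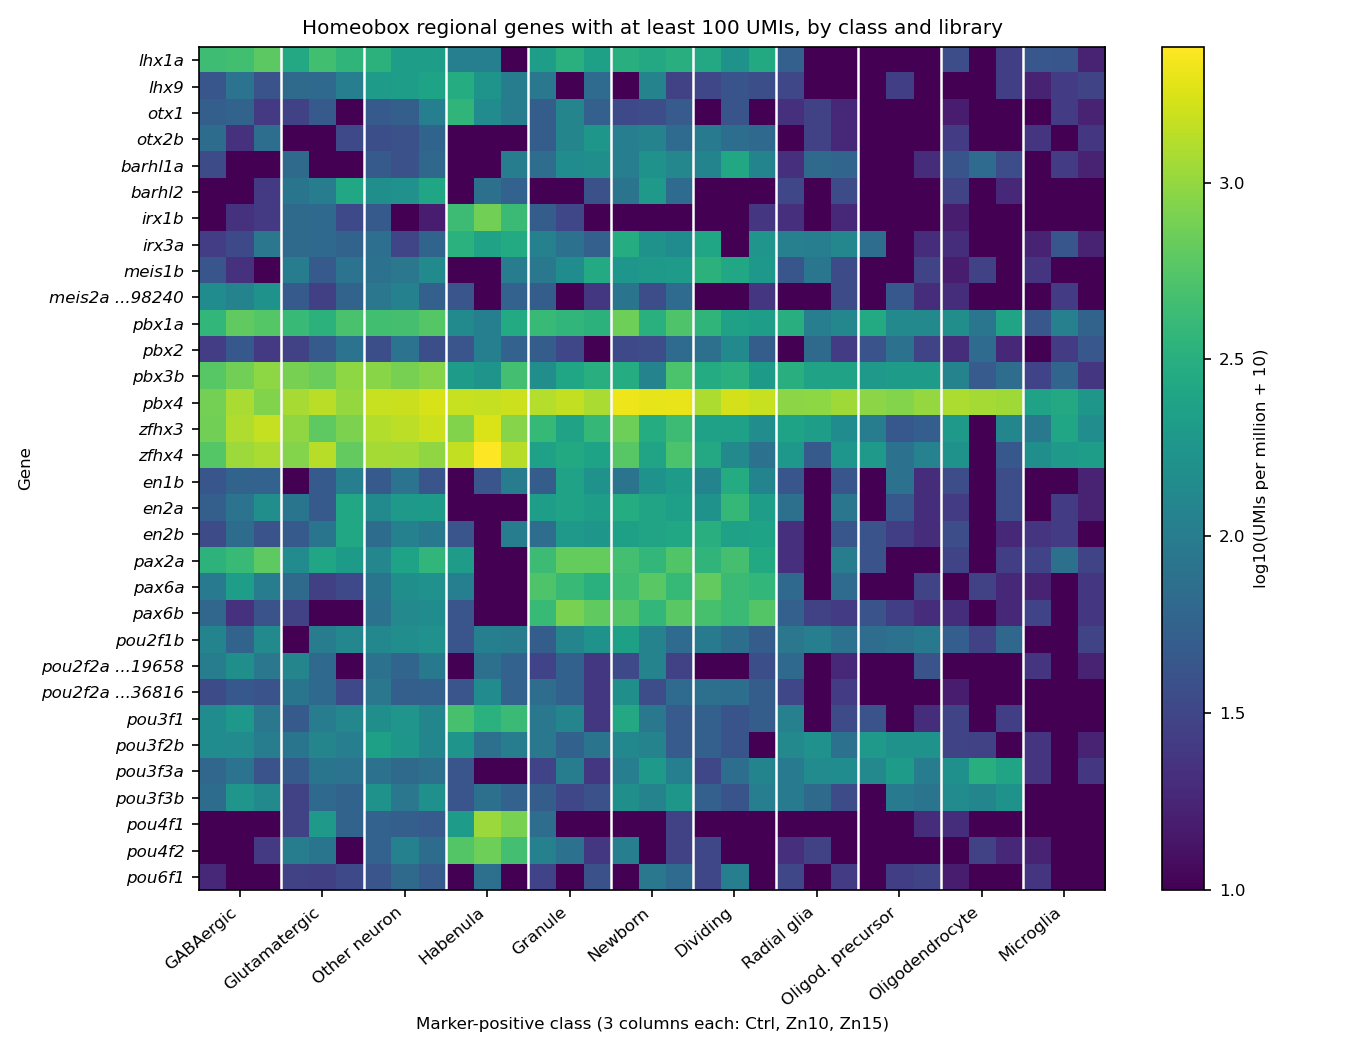
Levels of the 32 genes with at least 100 UMIs (rows, by family) in 11 marker-positive classes (columns), with the 3 libraries of a class side by side in the order Ctrl, Zn10, Zn15. Colour is log10 of CPM plus 10. pbx4 is bright in every class but microglia, whereas irx1b, pou4f1 and pou4f2 are bright in the habenula class and pax6a and pax6b in granule, newborn and dividing classes.

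The 2 neuron classes together (GABAergic and glutamatergic) were set against the 3 glial classes (radial glia, oligodendrocyte precursors, oligodendrocytes). Class sums of counts per library were fitted in edgeR with library as a block, and a call needed an adjusted p under 0.05 and at least 2-fold. Shares and medians over all genes in this fit are taken over the 1912 tested genes that are not class markers. Only 21 of the 148 genes had counts enough to be tested. Of these, 11 were higher in neurons, where 18.0% of all genes tested were, and 1 was lower, where 21.5% of all genes were. The median log2 fold change of the 21 was 1.59, against −0.13 over all genes tested. The 33 sums come from 3 libraries that had different treatments, so the p-values measure the spread over these libraries, which may be technical. A gene can reach the count minimum through the very classes where it is high, so counts over the 21 genes are a description.

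lhx1a, a LIM factor of GABAergic and other midbrain and hindbrain neurons, differed most. It had 432, 451 and 591 CPM in the GABAergic class and 262, 445 and 354 CPM in the glutamatergic class of Ctrl, Zn10 and Zn15. In the glial classes it had 44, 0 and 0 CPM in radial glia, no UMI in oligodendrocyte precursors and 26, 0 and 18 CPM in oligodendrocytes. Every neuronal value lay above every glial one, with a log2 fold change of 5.39 ± 0.42 (SE; edgeR adjusted p = 6.33e-18).

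pax2a followed at 3.74 ± 0.44 (edgeR adjusted p = 2.66e-11). It stood at 338, 403 and 607 CPM in the GABAergic class and at 131, 241 and 189 CPM in the glutamatergic class, against 11, 0 and 92 CPM in radial glia and at most 31 CPM in the other glial sums. The zfhx pair came next, zfhx3 at 2.86 ± 0.25 (edgeR adjusted p = 2.52e-16) and zfhx4 at 2.73 ± 0.24 (edgeR adjusted p = 1.25e-15). Their neuronal sums ran from 558 to 1494 CPM and their glial sums from 0 to 233 CPM. The remaining genes called higher were lhx9 (2.59), pbx3b (1.98), pou3f1 (1.91), pax6a (1.73), en2b (1.59), en2a (1.58) and pbx1a (1.18), given as log2 fold changes. Of these, pax6a, en2a and en2b lost their call in 3, 3 and 4 of 10 alternatives. Of the pbx genes, pbx4 had a log2 fold change of −0.28 ± 0.13 (edgeR adjusted p = 0.054) and was not called.

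pou3f3a, a class III POU factor (Brn1 in mammals), was the 1 gene called lower in neurons, by a log2 fold change of −1.69 ± 0.34 (edgeR adjusted p = 1.91e-05). It had 51, 71 and 31 CPM in the GABAergic class and 37, 74 and 71 CPM in the glutamatergic class. Oligodendrocytes had 147, 306 and 237 CPM, oligodendrocyte precursors 123, 192 and 93 CPM and radial glia 89, 132 and 134 CPM. It was also called above the mean of the other classes in oligodendrocytes, precursors and radial glia (log2 fold changes of 2.27, 1.28 and 1.34). It reached the count minimum through glial sums, and with no minimum the edgeR adjusted p was 0.000344. The call between neurons and glia held in the 8 alternatives where it could be tested, and the gene was too scarce to test with barcodes of at least 200 genes or with 1 more marker UMI per class. Its near relative pou3f3b was not among the genes with counts enough for this test. In oligodendrocytes it had 132, 115 and 158 CPM. With no minimum, the log2 fold change of pou3f3b between neurons and glia was −0.43 ± 0.42 (edgeR adjusted p = 0.963), and it was not called.

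Between the transmitter classes few genes could be told apart. Of the 21 genes tested, 0 were called higher in the GABAergic class by edgeR and 0 by DESeq2 (0.68% of all genes were by edgeR), while 3 and 2 were higher at an unadjusted p under 0.05, and 2 were called lower (0.941% of all genes were). barhl2, a Bar-class factor of the diencephalon and hindbrain, had 0, 0 and 16 CPM in the GABAergic class, against 75, 93 and 260 CPM in the glutamatergic class, which is 1 UMI against 20. The log2 fold change was −4.49 ± 0.96 (edgeR adjusted p = 0.00202, and 0.00191 with no count minimum). barhl2 reached the count minimum only with the glutamatergic sums. pou4f1 (Brn3a), a factor of sensory and habenula neurons, had no UMI in the GABAergic class, against 1, 10 and 2 UMIs in the glutamatergic class of Ctrl, Zn10 and Zn15. It was at least 7.71-fold lower, set against a floor of 3 counts over the class, and called at an edgeR adjusted p of 0.0182. Habenula markers summed to 131, 408 and 259.5 CPM in the glutamatergic class of the same libraries, and their part in this result was not tested. Both calls rest on few molecules: without the Zn15 library edgeR called 0 genes (5 at an unadjusted p under 0.05), with barhl2 then too scarce to test. The edgeR adjusted p of pou4f1 was 0.0645 without Zn15 and 0.637 without Zn10, and by DESeq2 it was 0.43. In the other direction pax2a came nearest to a call, with a log2 fold change of 1.31 ± 0.39 (edgeR adjusted p = 0.057).

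Several genes were seen in the GABAergic class and not in the glutamatergic class; they were chosen after their values were seen. six3a, a forebrain gene, had 51, 130.4 and 187 CPM in the GABAergic class (29 UMIs), against 0 UMIs in the glutamatergic class. lhx6, which in mouse marks interneurons of the medial ganglionic eminence, had 93, 154 and 47 CPM (27 UMIs) against 0, and dlx5a, of a family that drives GABAergic fate in the forebrain, had 51, 107 and 109 CPM (22 UMIs) against 0. dlx2a had 59, 47 and 62 CPM (15 UMIs) against 0. Every GABAergic sum of these 4 genes held molecules and every glutamatergic sum was empty, so the folds are at least 5.43, 5.06, 4.12 and 2.81 for six3a, lhx6, dlx5a and dlx2a against 3 counts over the glutamatergic class. The same pattern, with fewer molecules, held for pax2b (8 UMIs), lhx5, lhx8a and dlx1a (7 each) and pax7a and six6a (6 each). pax2b and pax7a are known from the midbrain and hindbrain, so these are not all forebrain genes. All were too scarce for the test above. With no count minimum, 99 of the 148 genes entered the fit, and six3a, lhx6 and dlx5a were the 3 called higher (0.138% of all genes were), with edgeR adjusted p of 0.00051, 0.00121 and 0.00508, while dlx2a was not called (0.0794). barhl2 and pou4f1 were again the 2 called lower (0.0847% of all genes were).

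The habenula class stood out by pou4 and Iroquois genes. pou4f1 had 194, 1041 and 785 CPM in the habenula sums of Ctrl, Zn10 and Zn15, and at most 185 CPM in any other class. irx1b, an Iroquois factor, had 420.0, 749 and 416 CPM. pou4f2 had 549, 716 and 462 CPM, and pou3f1 (Oct6 in mammals) had 485, 326 and 416 CPM. For pou4f2, irx1b and pou3f1 every habenula sum lay above every sum of the other classes, and pou4f1 in Ctrl was barely above the highest glutamatergic sum. Of the 21 genes tested, 8 were called higher in this class than in the mean of the other classes (12.3% of all genes were), these 4 and lhx9, irx3a, zfhx4 and zfhx3, and 1 lower, en2a (5.65% of all genes were). Without the habenula sums, 5 of the 8 (pou4f1, irx1b, pou4f2, pou3f1 and irx3a) would not have reached the count minimum, so they had to differ and nothing is read from the count. With no minimum, the log2 fold changes of pou4f1, irx1b, pou4f2 and pou3f1 were 6.22 ± 0.45, 5.97 ± 0.46, 5.08 ± 0.42 and 3.11 ± 0.42, all called (edgeR adjusted p at most 7.9e-11). Too scarce for the fit with a minimum, otx1 was called here too, at 3.44 ± 0.56 (edgeR adjusted p = 1.48e-07), above pou3f1. So was irx5a, at 2.66 ± 0.66 (edgeR adjusted p = 0.00446).

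Granule, newborn and dividing classes shared a profile of pax6 and midbrain to hindbrain genes. These classes also share markers. Granule markers summed to 9448 CPM in the granule class, 2611 CPM in dividing barcodes and 1998 CPM in newborn neurons. In the habenula class they summed to 2376 CPM and in the GABAergic class to 382 CPM. Newborn neuron markers summed to 3136 CPM in dividing barcodes and 809 CPM in the granule class. The part of this overlap in the profile was not tested. pax6b, 1 of the zebrafish copies of the eye, forebrain and cerebellar factor Pax6, had 402, 786 and 623 CPM in the granule class, 550.2, 369 and 578 CPM in newborn neurons and 483, 410.3 and 546 CPM in dividing barcodes, for Ctrl, Zn10 and Zn15. No other class exceeded 136 CPM. Its log2 fold changes over the mean of the other classes were 3.67 ± 0.28, 3.36 ± 0.31 and 3.38 ± 0.30, all called (edgeR adjusted p at most 2.27e-14). pax6a was called in the same 3 classes, at 2.68, 2.82 and 2.94. en2a was called there at 2.03, 2.26 and 2.21 and pax2a in all 3 as well, at 2.38 in the granule class and 1.60 in dividing barcodes. meis1b, a TALE partner of pbx proteins, had its largest log2 fold change in dividing barcodes, 2.59 ± 0.42 (edgeR adjusted p = 3.51e-07). Its levels there were 329.5, 252 and 177 CPM. It was also called in newborn neurons (2.06), the granule class (1.99) and other neurons (1.08). In all, 8 genes were called higher in the granule class (10.4% of all genes), 11 in newborn neurons (15.4%) and 9 in dividing barcodes (17.7%). These counts include en1b in all 3 classes and barhl2 in newborn neurons. Both reached the count minimum only with the sums of the class in question, so nothing is read from the counts. pax6b had 9 sums past the minimum, and 6 with the sums of any 1 of the 3 classes left out. Like pax6a and meis1b, it reached the minimum largely through these 3 classes together, so their shared profile is a description. In the granule class 0 were called lower by edgeR and by DESeq2, with 1 at an unadjusted p under 0.05 by either (3.5% of all genes were called by edgeR). zfhx3 and zfhx4 were called lower in dividing barcodes, at −1.23 and −1.58 (16.7% of all genes were lower there).

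In other neurons, the class of neurons with no more specific marker, barhl2 led with 143, 151 and 250 CPM and a log2 fold change of 3.84 ± 0.40, then lhx9, a LIM factor of the forebrain, with 199, 201 and 233 CPM and 2.76 ± 0.32. Both reached the count minimum only with the sums of this class, so these folds are a description. In the glutamatergic class 7 genes were called higher (15.2% of all genes), led by barhl2 (3.40), pou4f1 (3.13), irx1b (2.28) and lhx1a (2.22), and pax6b was lower (−2.98; 8.94% of all genes were lower). Without Zn10 the edgeR adjusted p of pou4f1 there was 0.237. barhl2 reached the count minimum only with the glutamatergic sums, so its fold in that class is a description. The GABAergic class also had 7 (15.5% of all genes), led by lhx1a (2.81), pax2a (2.18), zfhx3 (1.83) and pbx3b (1.66), and 0 were called lower by edgeR and by DESeq2, with 1 at an unadjusted p under 0.05 by either (8.94% of all genes were called by edgeR). In radial glia 2 were called, irx3a (1.37) and pou3f3a (14.1% of all genes), and zfhx4 was lower (−1.09; 2.46% of all genes were). In oligodendrocytes pou3f3a alone was called higher (22.1% of all genes were) and 9 genes lower (18.6% were), and in precursors pou3f3a alone was higher (16.8% were) and 5 were lower, led by lhx1a and pax2a (5.81% were). In microglia edgeR and DESeq2 called 0 genes higher, with 0 at an unadjusted p under 0.05 (26.4% of all genes were called by edgeR), and edgeR called 11 lower (33.7% of all genes were), among them pbx3b (−3.13) and pbx4 (−1.97).

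**Figure D2:**
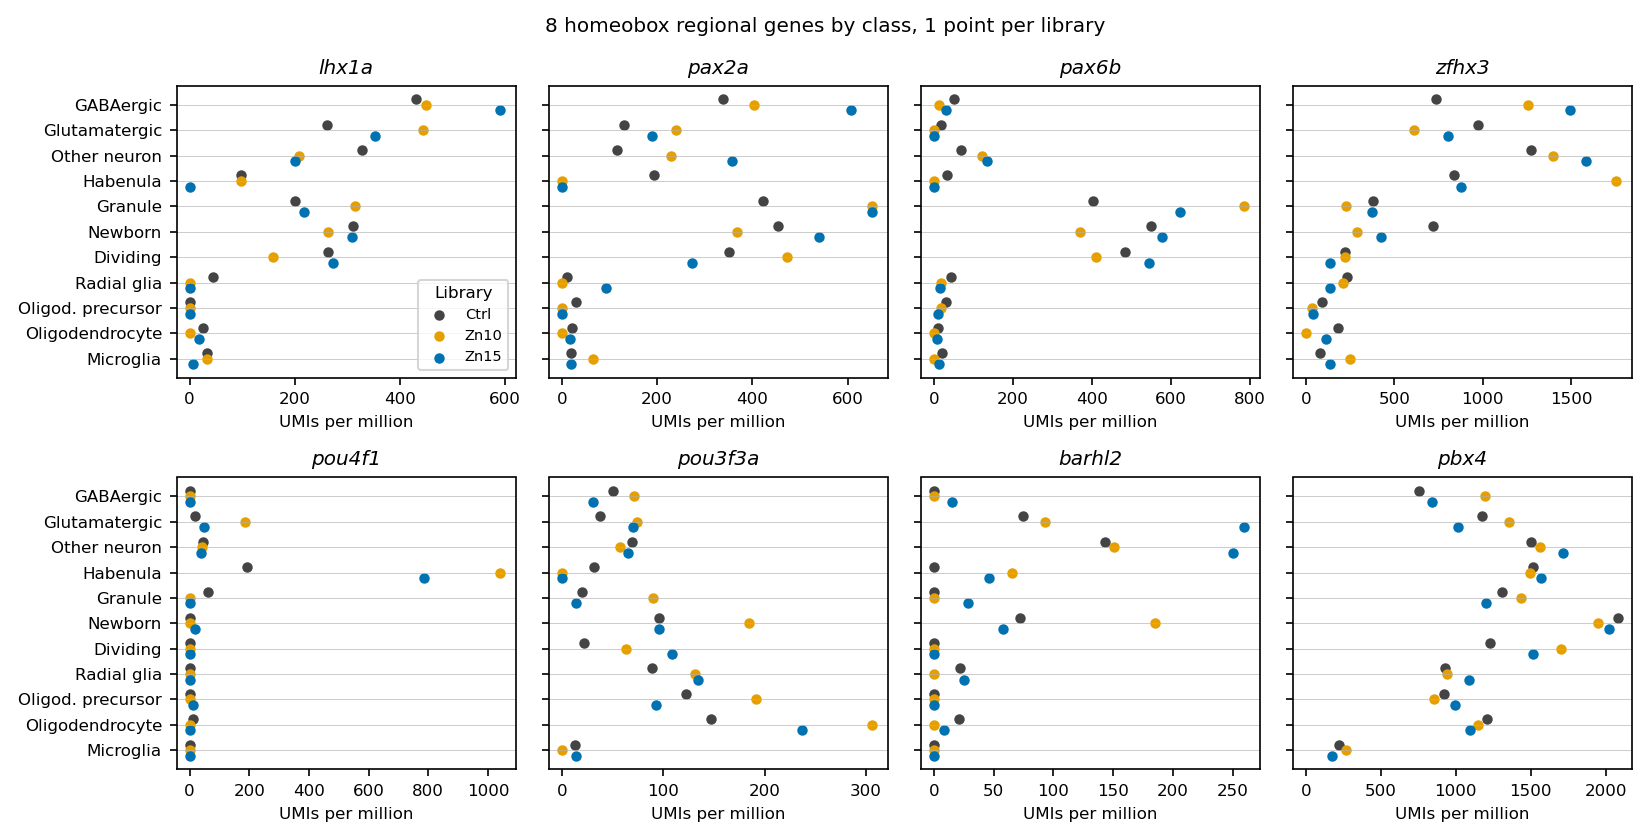
Levels of 8 genes (panels, CPM on a linear axis from 0) in 11 classes, 1 point per library. lhx1a and pax2a are near 0 in glia and microglia, pax6b reaches 369 to 786 CPM in granule, newborn and dividing classes, pou4f1 is high in the habenula class of Zn10 and Zn15, and pou3f3a peaks in oligodendrocytes.

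Classes by few markers leave out many barcodes, so the genes were also placed in 20 clusters of barcodes made without any of the 148. What follows is description. Cluster 2 (1671 barcodes; leading genes bnc2, tfap2a, tbr1b, eomesa and nhlh2) had the highest summed level, 13125 CPM. Of the barhl2 UMIs in kept barcodes it held 57.9%, at 285, 283 and 413 CPM in Ctrl, Zn10 and Zn15. Of the zfhx3 UMIs in kept barcodes it held 41.0%, at 2523, 2528 and 2215 CPM. pbx4 stood at 2992 CPM there, against a median of 1040.0 CPM over clusters. The same cluster was the top one for pbx1a, pou3f3b, dlx2a, dlx5a and emx3.

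Habenula genes fell into a pair of clusters. Cluster 14 (185 barcodes) was led by kiss1 and gpr139, and kiss1 is a known gene of the ventral habenula. It had 2504 CPM of zfhx4, 852 CPM of pou4f2, 716 CPM of irx1b and 460.0 CPM of pou3f1. Cluster 19 (113 barcodes), led by gng8 and nwd2, had 1054 CPM of pou4f1, 516 CPM of lhx9 and 624 CPM of irx1b. pou4f2 was lower there, at 237 CPM (interval 118 to 423), against 852 CPM (632 to 1123) in cluster 14.

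Cluster 16 (175 barcodes, led by uts1 and cbln1 and mostly in the glutamatergic class) had 1145 CPM of lhx1a, for which it was the top cluster in each library. Over the libraries together it was also the top cluster for pbx3b, at 1084 CPM, and en2b, at 470.4 CPM, but in Ctrl alone it was not, and for en2a it led on 19 UMIs, at 389 CPM, and in Zn15 alone. Cluster 4 (1208 barcodes, led by oprd1b, neurod2 and neurod1) was the top cluster for pax2a, at 807 CPM, for pax6b, at 669 CPM, and for en1b, at 218 CPM. Cluster 6, led by mitotic genes such as kif20a and cdca8, had 600 CPM of pax6a and 648 CPM of pax6b. Over the libraries together meis1b was highest in cluster 9, led by fat2 and vsnl1a, at 311 CPM. Cluster 6 was next for meis1b at 245.5 CPM, and cluster 9 led in 1 library only. Cluster 7, led by her4 genes, which are Notch targets of radial glia, had most pou3f3a (270 CPM) and most pax3a (147 CPM), a dorsal neural tube gene.

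**Figure D3:**
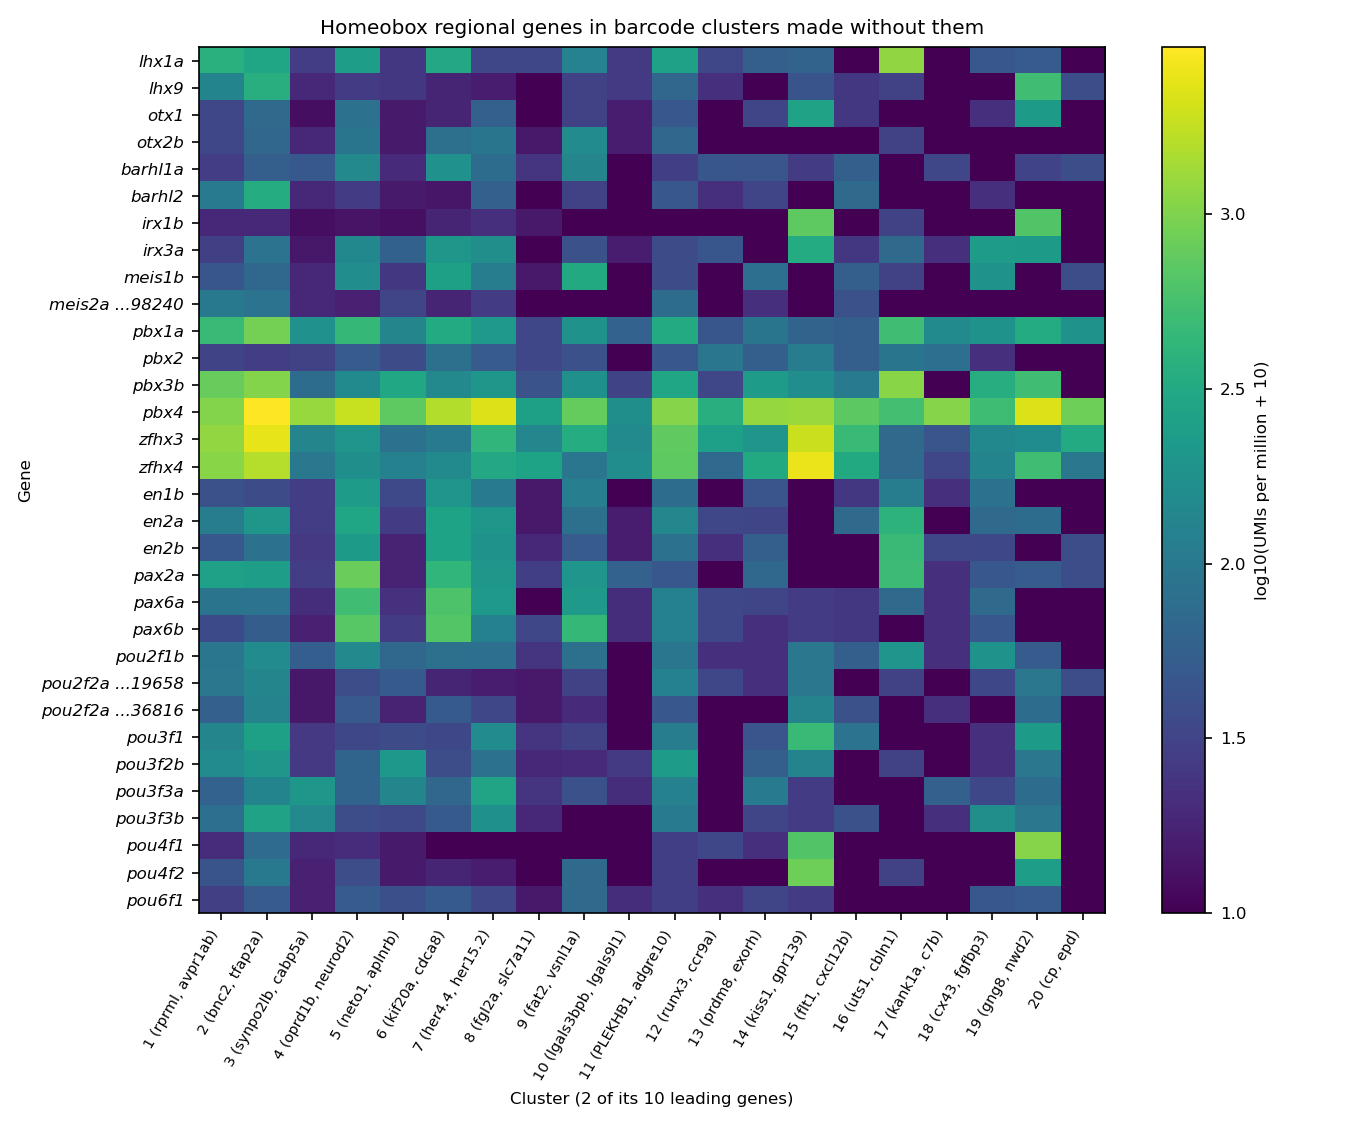
The same 32 genes (rows) in 20 clusters of kept barcodes made without the homeobox regional genes (columns, each with 2 of its 10 leading genes), all libraries together. Colour is log10 of CPM plus 10. irx1b, pou4f1 and pou4f2 light up in clusters 14 and 19, barhl2 in cluster 2 and pax6a and pax6b in clusters 4, 6 and 9.

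Within single barcodes some of these genes were found together. For each gene, the level of a partner was compared between barcodes with and without a UMI of that gene, as a description, and the pairs below were picked after their values were seen. Barcodes without the gene were all other kept barcodes, glia and microglia included, and the part of class differences in the ratios was not tested. Barcodes with irx1b held 948 CPM of pou4f1, against 26.5 CPM in those without, a ratio of 35.8 (23.4 to 53.5; 20.8 to 38.8 within the libraries). That level of pou4f1 rests on 33 UMIs, in 18 of the 78 barcodes with irx1b. Barcodes with pou4f1 held 524.5 CPM of irx1b against 17.8 CPM, a ratio of 29.5 (17.4 to 48.3). zfhx3 and zfhx4 shared 603 barcodes, and those with zfhx3 held 2228 CPM of zfhx4 against 279 CPM, a ratio of 7.97 (7.32 to 8.69).

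The genes of the midbrain and hindbrain boundary also went together. Barcodes with pax2a held 371 CPM of en2b against 59.0 CPM (ratio 6.30), 546 CPM of en2a against 88.3 CPM (6.19) and 280.2 CPM of en1b against 45.8 CPM (6.12). Within the libraries these ratios ran from 3.48 to 11.1 for en2b, from 4.82 to 8.84 for en2a and from 4.53 to 8.78 for en1b. pax6a was at 551 CPM in barcodes with pax6b, against 109 CPM in those without (ratio 5.06). Barcodes with barhl2 held 567 CPM of lhx9 against 69.3 CPM (ratio 8.18), but within the libraries this ratio ran from 1.02 to 13.1. Droplets that caught more than 1 cell were not removed.

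**Figure D4:**
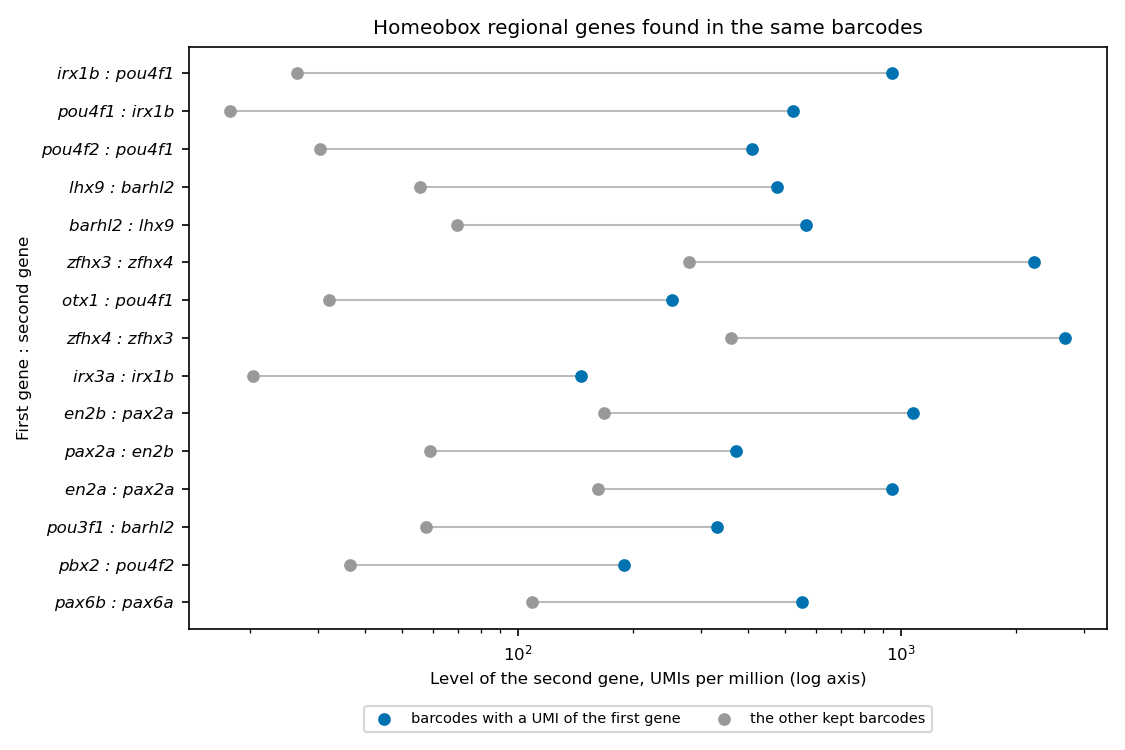
Pairs of genes (rows, first gene : second gene) with the level of the second gene in CPM on a log axis, in barcodes with a UMI of the first gene (blue) and in the other kept barcodes (grey). Each first gene is shown with its partner of highest ratio where that ratio is at least 5; the widest gap is irx1b with pou4f1, 948 against 26.5 CPM.

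Over the 33 class sums, the gene most like zfhx3 among 3229 was zfhx4 (Pearson r = 0.913 of log2 levels, as a description; sums of 1 library share its depth). The closest for pax6a was pax6b (0.869), for lhx1a pax2a (0.853) and for pax6b oprd1b (0.902), a granule class marker, with slc7a3a (0.902) beside it. pbx4 was nearest to fbxo11a (identifier ENSDARG00000061631; 0.907), pbx3b to maptb (0.835), pbx1a to spegb (0.856) and en2a and pax2a to BX248324.1 (0.886 and 0.854).

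Other regional genes were put through the same fit. Of 99 further homeobox genes only 4 could be tested: 2 were called higher in neurons than in glia (tshz1 and tshz3b), and 1 (tshz1) was called lower in the GABAergic class than in the glutamatergic class. Of 29 transcription factors of other families that are not class markers, 8 were tested, with 5 higher in neurons, among them nr2f2 at a log2 fold change of 2.85 and tcf7l2 at 2.12, and 1 lower, sox2 (−1.44), a progenitor factor. Of these 8, foxp4 was higher in the GABAergic class by 1.41 ± 0.31 (edgeR adjusted p = 0.0022), and mafba and tcf7l2 were lower. None of the 8 morphogen genes had counts enough.

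The zinc libraries were compared as whole libraries, and no test is possible with 1 library each. All values describe these libraries, and the comparisons with Ctrl share it. Total-count scaling left the median gene at a log2 ratio of 0.13 for Zn10 over Ctrl, −0.06 for Zn15 over Ctrl and −0.18 for Zn15 over Zn10. Of 50 members with at least 20 UMIs, 11 (22%) were past 1.5-fold in Zn10 against Ctrl. Among all genes of that depth, 27.2% were. In Zn15 against Ctrl it was 11 of 53, or 20.8%, where 25.6% of all genes were. Both shares were near those of all genes, so they mark nothing particular to the members. Other scalings change the balance of directions: by median of ratios the genes past 1.5-fold were 5 higher and 4 lower in Zn10 against Ctrl, 7 and 6 in Zn15 against Ctrl and 6 and 6 in Zn15 against Zn10, and with malat1 left out of the totals they were 7 and 3, 7 and 6, and 3 and 8.

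In Zn10 against Ctrl, 8 genes were at least 1.5-fold higher (16.4% of all genes) and 3 lower (10.7% of all genes). For 6 of the 11 (54.5%) the counting interval left out 1, as it did for 49.5% of all genes past 1.5-fold. pbx2, a TALE cofactor, had 53.3 CPM in Zn10, against 19.4 CPM in Ctrl, a ratio of 2.75 (1.74 to 4.38). pou4f1 had 61.5 CPM in Zn10, against 27.7 CPM in Ctrl (2.22, 1.49 to 3.33), and six3a 28.7 CPM in Zn10, against 14.1 CPM in Ctrl (2.03, 1.14 to 3.66). en1b (1.72) and pou4f2 (1.54) were the other higher ones. The pou2f2a gene with identifier ENSDARG00000036816, an octamer-binding factor, was lower, at 27.7 CPM in Zn10, against 45.9 CPM in Ctrl (0.603, 0.374 to 0.945). Over all alternatives its log2 ratio ran from −0.977 to −0.254, against −0.729 as reported. That of pou4f2 ran from 0.375 to 1.02, against 0.623, so for these genes not every alternative was past 1.5-fold.

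In Zn15 against Ctrl, 4 genes were at least 1.5-fold higher (11.4% of all genes) and 7 lower (14.2% of all genes). For 7 of these 11 (63.6%) the counting interval left out 1, as it did for 51.3% of all genes past 1.5-fold. en1a had 16 UMIs in Zn15, against 6 in Ctrl, a ratio of 2.77 (1.03 to 8.65). pax3a had 26.9 CPM in Zn15, against 14.7 CPM in Ctrl (1.83, 1.09 to 3.12), and pbx2 31.8 CPM in Zn15, against 19.4 CPM in Ctrl (1.64, 1.04 to 2.61). irx1b was lower, at 11.6 CPM in Zn15, against 27.7 CPM in Ctrl (0.420, 0.233 to 0.730). pou3f1 had 54.4 CPM in Zn15, against 108.9 CPM in Ctrl (0.4999, 0.384 to 0.647). The same pou2f2a gene (0.600) and pou4f2 (0.663) were lower too. Over all alternatives the log2 ratio of pou2f2a ran from −0.766 to −0.273, against −0.738 as reported. That of pou4f2 ran from −0.645 to −0.404, against −0.594, and that of pbx2 from 0.293 to 0.773, against 0.711. For these genes not every alternative was past 1.5-fold.

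Several abundant genes differed by less than 1.5-fold with intervals that left out 1. pax2a had 212 CPM in Zn10 and 209 CPM in Zn15, against 143 CPM in Ctrl, which gave ratios of 1.48 (1.23 to 1.79) and 1.46 (1.24 to 1.73). zfhx4 stood at 665 CPM in Zn10, against 581 CPM in Ctrl (1.14, 1.03 to 1.26), and at 445 CPM in Zn15, against the same 581 CPM (0.766, 0.695 to 0.844). zfhx3 stood at 729 CPM in Zn10, against 699 CPM in Ctrl (1.04, 0.9498 to 1.15), an interval that included 1, and at 598 CPM in Zn15, against 699 CPM in Ctrl (0.855, 0.785 to 0.932). pbx4 had a ratio of 1.08 (1.01 to 1.16) in Zn10, and in Zn15 its ratio of 1.06 had an interval that included 1 (0.999 to 1.13).

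In Zn15 against Zn10, 2 genes were at least 1.5-fold higher (9.11% of all genes) and 11 lower (18.5% of all genes). For 8 of these 13 (61.5%) the counting interval left out 1, as it did for 51.3% of all genes past 1.5-fold. The lower ones with an interval that left out 1 were irx1b (0.306), pou4f1 (0.398), pou4f2 (0.430), six3a (0.447), emx2 (0.578), pbx2 (0.596), pou3f1 (0.639) and pou3f2b (0.652). Of these, irx1b, pou4f1, pou4f2 and pou3f1 are the genes called highest in the habenula class in the fit with the count minimum. That class held 1.36% of kept barcodes in Zn15, 2.85% in Zn10 and 1.64% in Ctrl. The part of the size of that class in these ratios was not tested. With classes weighted to the Ctrl mix, the log2 ratio of irx1b in Zn15 against Ctrl was −0.94 in place of −1.25. By the same weighting, that of pou4f1 in Zn15 against Zn10 was −0.64 in place of −1.33. Over all alternatives, the log2 ratio of irx1b in Zn15 against Zn10 ran from −1.92 to −0.952, against −1.707 as reported. In the same comparison the weakest values were −0.334 for pou3f1, −0.435 for pou3f2b, −0.523 for six3a and −0.563 for pbx2. For these last genes not every alternative was past 1.5-fold. Within the habenula class irx1b had 416 CPM in Zn15, against 749 CPM in Zn10, a ratio of 0.555 (0.226 to 1.25), while Ctrl had 420.0 CPM. pou4f2 had 462 CPM in Zn15 there, against 716 CPM in Zn10 (0.645, 0.273 to 1.42), and pou4f1 785 CPM in Zn15, against 1041 CPM in Zn10 (0.754, 0.393 to 1.40). These 3 ratios lay below 1 with intervals that included it.

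**Figure D5:**
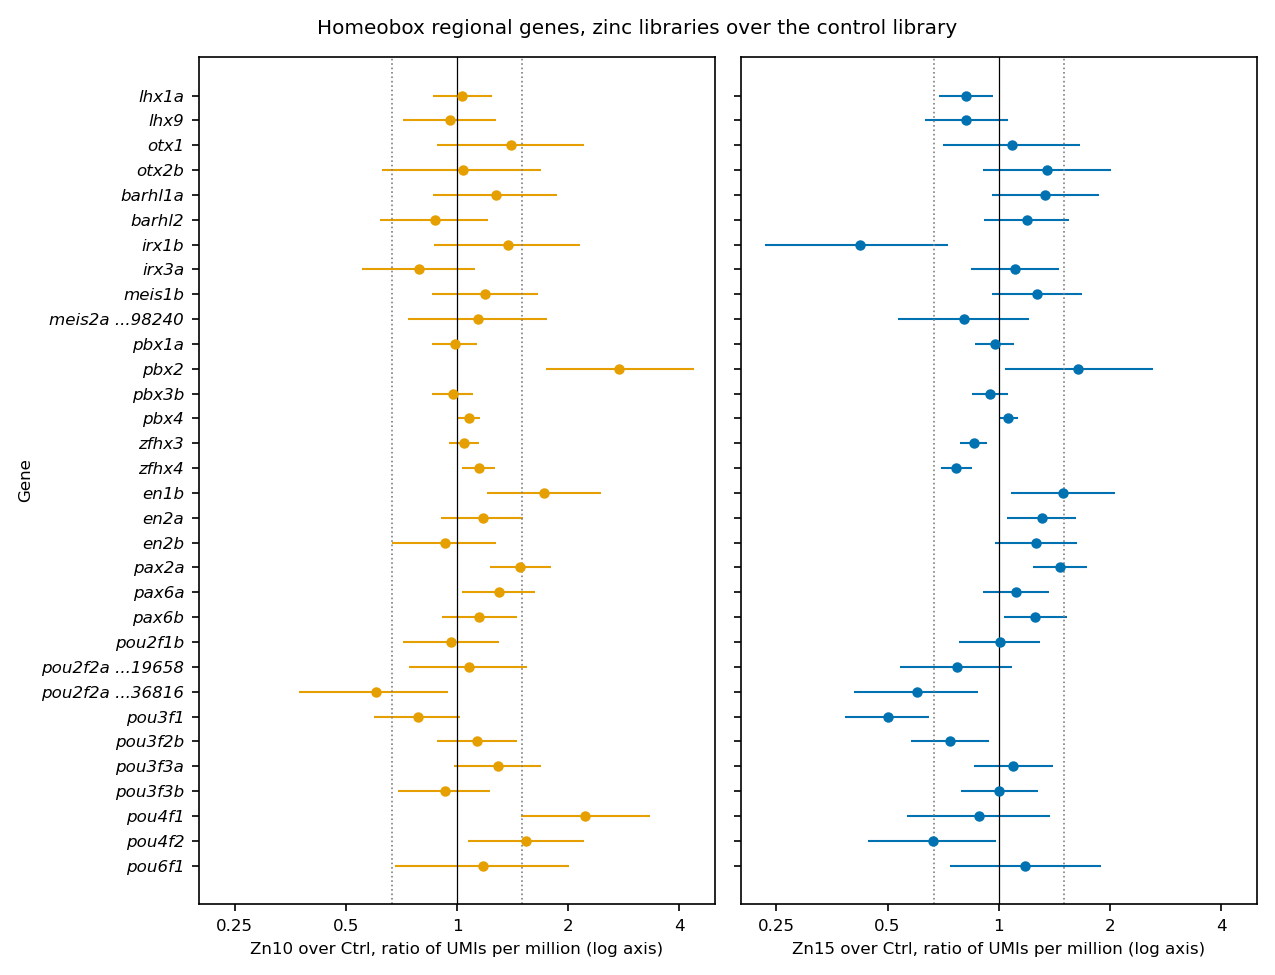
Ratio of CPM in Zn10 over Ctrl (left) and Zn15 over Ctrl (right) for the 32 genes, on a log axis with exact 95% counting intervals and 1 library per treatment. Dotted lines mark 1.5-fold either way; pbx2 is higher in both zinc libraries, and irx1b and pou3f1 are lowest in Zn15.

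Within classes, 293 ratios between libraries had at least 20 UMIs, and 45 of them (15.4%) had an interval that left out 1, where 14.0% of the same ratios over all genes did. In Zn10 against Ctrl these shares were 23.9% and 14.3% of all genes. In Zn15 against Ctrl they were 14.4% and 14.7%, and in Zn15 against Zn10 8.25% and 12.8%. In the GABAergic class zfhx3 had 1257 CPM in Zn10 and 1494 CPM in Zn15, against 736 CPM in Ctrl, which gave ratios of 1.71 (1.27 to 2.29) and 2.03 (1.502 to 2.74). zfhx4 had 1067 CPM in Zn10 and 1198 CPM in Zn15, against 558 CPM in Ctrl there, with ratios of 1.91 (1.38 to 2.67) and 2.15 (1.52 to 3.03). Both genes were thus higher in the GABAergic class of the zinc libraries, although zfhx4 and zfhx3 were lower in Zn15 as a whole. Oligodendrocyte markers summed to 273 CPM in this class in Zn10 and 249 CPM in Zn15, against 1438 CPM in Ctrl. Radial glia markers summed to 1636 CPM there in Zn10 and 3407 CPM in Zn15, against 2327 CPM in Ctrl, and the part of either in the ratios was not tested.

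In the habenula class pou4f1 had 32 UMIs in Zn10 and 17 in Zn15, against 6 in Ctrl, with ratios of 5.37 (2.22 to 15.7) and 4.05 (1.52 to 12.6). Oligodendrocyte markers there summed to 32.6 CPM in Zn10 and 2310.0 CPM in Zn15, against 4459 CPM in Ctrl. Radial glia markers summed to 3450.0 CPM in Zn10 and 8268 CPM in Zn15, against 1777 CPM in Ctrl, and the part of either was likewise not tested. Over whole libraries pou4f1 had 61.5 CPM in Zn10 and 24.5 CPM in Zn15, against 27.7 CPM in Ctrl, so it was not higher in Zn15 as a whole. Cluster 19, the top cluster for pou4f1, had 43 of its 113 barcodes in the habenula class. In other neurons pax2a had 229 CPM in Zn10 and 358 CPM in Zn15, against 116 CPM in Ctrl, with ratios of 1.98 (1.14 to 3.49) and 3.10 (1.93 to 5.13). lhx1a was lower there, at 208 CPM in Zn10 and 201 CPM in Zn15, against 328 CPM in Ctrl (0.633, 0.396 to 0.988, and 0.612, 0.400 to 0.923).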

How the data were processed

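The deposited values are raw UMI counts, whole numbers in 1 sparse matrix for each library, which the authors made with Cell Ranger 4.0.0, per the file headers. Per the submitters' processing notes, fastp, Seurat and the build GRCz11 were also used; the sources used here do not state how cells were called or which annotation release was used. The gene families as a subject, the classes and the lists were chosen with earlier results of these data known, though each gene then entered by its symbol; and the class rule was set after the markers' counts had been seen.

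Kept barcodes numbered 4629 (Ctrl), 2459 (Zn10) and 4119 (Zn15), with medians of 271, 301 and 296 UMIs. Counts were summed by class and library (33 sums) and tested with edgeR 4.0.16 (TMM, filterByExpr, quasi-likelihood, terms class and library, Benjamini-Hochberg over all genes tested), after a check on simulated counts. The simulated counts had the same spread for every gene. Between GABAergic and glutamatergic classes, 18.4% of simulated 2-fold changes and 90% of 4-fold ones were recovered. Between neurons and glia these shares were 77.2% and 100%. DESeq2 1.42.0 was an alternative. Class marker genes are left out of the percentages of all genes called. Named were the 30 genes with most UMIs, up to 10 called genes per direction in the class contrasts, up to 4 higher per class, and library ratios past 1.5-fold with at least 20 UMIs and a counting interval without 1. Other genes named (those absent from the glutamatergic class, cluster and barcode pairs, ratios within classes) were chosen after their values were seen. Folds against 0 use 3 counts over the class. Clusters (Leiden, leidenalg 0.10.2) left out all 148 genes. Doublets and free RNA were not corrected. Where a symbol has several identifiers the identifier is given. No coordinates are given.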

Additional observations from a re-analysis of the deposited data

Results flagged for a closer look

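Ratios between libraries that ran in opposite directions in different classes, each with a counting interval that left out 1, were found for 3 genes; with 1 library per treatment the difference between classes was not tested. pbx1a in Zn10 against Ctrl had a ratio of 1.66 in the GABAergic class and 0.315 in radial glia (5 UMIs in Zn10 and 27 in Ctrl). zfhx3 in Zn10 against Ctrl had 3.06 in microglia (15 UMIs in Zn10 and 12 in Ctrl) and, with 0 UMIs in Zn10 and 34 in Ctrl, at most 0.321 in oligodendrocytes, taken at 3 counts. zfhx4 in Zn10 against Ctrl had 1.91 in the GABAergic class and, with 0 UMIs in Zn10 and 29 in Ctrl, at most 0.377 in oligodendrocytes. zfhx4 in Zn15 against Ctrl had 2.15 in the GABAergic class and 0.230 in oligodendrocytes (4 UMIs in Zn15 and 29 in Ctrl). zfhx4 in Zn15 against Zn10 had 4.45 in radial glia (20 UMIs in Zn15 and 2 in Zn10) and 0.477 in the glutamatergic class.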

How the results depend on the processing

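Calls between GABAergic and glutamatergic classes depended on the settings: against 2 genes as reported, there was 1 with the DESeq2 Wald test, 5 with no filter on low counts, 6 with a minimum count of 3 (chosen after the data were seen), 0 by edgeR with barcodes of at least 200 genes (4 at an unadjusted p under 0.05), 0 with 1 more marker UMI per class (9 likewise), 1 with the sums of only these 2 classes, and 0 to 4 when 1 library was left out. barhl2 kept its call in the 7 alternatives where it could be tested, with adjusted p between 0.00034 and 0.021. In the fit as reported it reached the count minimum only with the glutamatergic sums, the side where it was high. Neurons against glia gave 12 calls and between 8 and 16 in all alternatives but barcodes of at least 200 genes, where there were 5 among 14 genes tested; leaving out a library gave 10 to 12. Calls of each class against the others numbered 97, against 153 with no filter, 150 with a minimum count of 3, 56 with at least 200 genes, and 77 to 89 when a library was left out. The 97 are calls of 21 genes over 11 classes, and the number of genes tested differed between settings (99 with no filter). They include genes that reached the count minimum only with the class where they were high. No share over all genes was taken for these sums, so nothing is read from them. Genes past 1.5-fold numbered 11, 11 and 13 in Zn10 against Ctrl, Zn15 against Ctrl and Zn15 against Zn10, and 7, 7 and 8 with a minimum of 50 UMIs. Median-of-ratios scaling turned the split in Zn10 against Ctrl to 5 higher and 4 lower, in Zn15 against Ctrl to 7 and 6, and in Zn15 against Zn10 to 6 and 6. With classes weighted to the Ctrl mix, the log2 ratio of pou4f1 in Zn15 against Zn10 was −0.64 in place of −1.33. Alternatives were tallied for the class calls and library ratios picked by the naming rule, wherever the gene could be tested. None of these changed direction: 512 of their 539 alternative values held their call or stayed within the interval. For library ratios, the minimum of 50 UMIs changes which genes are listed and not the ratio, so it could not move a value. A ratio that stayed within its interval may still be under 1.5-fold. Other values given, such as ratios within classes, were not checked in this way. The stricter rules left 21 habenula barcodes in Zn15 or 10 oligodendrocyte precursor barcodes in Ctrl. The causes of these changes were not tested. No paired analysis was possible because each treatment has 1 library and the labels pair nothing. Depth limits the rest: only 21 of 148 genes could be tested between classes.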
